A study of Mus musculus with 12 samples.

Results

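Coenzyme Q (ubiquinone) carries electrons between the dehydrogenases of the inner mitochondrial membrane and complex III, and it also acts there as a lipid antioxidant. It is made inside mitochondria from a benzoquinone ring and a long polyprenyl tail, by enzymes that act in sequence and are held together in a membrane-bound assembly. Heart muscle has a high content of coenzyme Q, and inherited defects in its synthesis are known to affect muscle, heart, kidney and brain. The genes described here are 10 that encode this route, namely *Pdss1*, *Coq2*, *Coq6*, *Coq3*, *Coq5*, *Coq7*, *Coq4*, *Coq9*, *Coq8a* and *Coq8b*. They were taken by function from the 51826 entries of the gene table, and all 10 passed the filter on low counts in every comparison. The family was selected on the level of *Coq8a*, which was among the genes with the largest decreases in CUG960 ventricles. The differences of *Coq8a* between genotypes and between tissues are therefore given as a description with no test.

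Gene counts came from poly(A)-selected RNA-Seq, with 12 libraries made from the atria and the ventricles of 6 female FvB mice at 10 weeks of age. CUG960 +dox mice (TREDT960I(H)/MHCrtTA(hemi)) are homozygous for a transgene that holds 960 interrupted CUG repeats within the last exons of human DMPK, the gene whose repeat expansion causes myotonic dystrophy type 1. They also carry 1 copy of MHCrtTA, a doxycycline-dependent transactivator driven by the α-myosin heavy chain promoter, so the repeat RNA is made in cardiomyocytes. Controls were MHCrtTA(hemi) +dox mice without the repeat transgene, so both genotypes carried the transactivator and received doxycycline, starting on postnatal day 1. The controls were mice V327, V333 and V334 and the CUG960 mice were V119, V120 and V123, and each mouse gave 1 atrial and 1 ventricular library. Depth was 116127966 to 160676189 counts per library.

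The tissue labels matched their markers. *Myl7*, the atrial myosin light chain, was at 2532 to 3318 CPM (counts scaled to the TMM library size) in atria and at 0.192 to 55.8 CPM in ventricles. *Myl2*, the ventricular light chain, was at 8.8 to 33.5 CPM in atria and at 8484 to 10474 CPM in ventricles. The ventricles of V123 had the highest *Myl7* level of any ventricular library (55.8 CPM) and the ventricles of V334 the next (19.3 CPM). Mouse *Dmpk* did not pass the test in either tissue (log2 fold change 0.10, adjusted P value = 0.318 in atria and 0.22, adjusted P value = 0.201 in ventricles, edgeR quasi-likelihood test). It checks the labels poorly, because the transgene is human and the share of its reads assigned to the mouse gene was not measured.

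The 10 genes lie apart from each other on GRCm38. *Coq8a* spans chr1:180165238-180199602 on the minus strand, with 17 annotated transcripts of which 12 are protein coding, 4 are targets of nonsense-mediated decay and 1 retains an intron. *Coq8b*, its closest relative, spans chr7:27233023-27257950 on the plus strand. *Coq5* spans chr5:115279666-115296972 on the plus strand and has 3 transcripts, 1 of them protein coding. The counts add all transcripts of a gene, so a decrease of a gene here does not say which of its transcripts decreased. The paper that reported these libraries names *Coq8a*, in atria and ventricles, among genes with splicing changes that bring in a premature stop codon. It links these to altered levels through nonsense-mediated decay. Splicing was not tested here.

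*Coq8a* has more than 1 start in RefSeq, and the stretches before its starts are shown because its gene counts add RNA from both. They were read from RefSeq (GRCm38.p6) on the minus strand, 5′ to 3′, without bases of annotated exons. The first is chr1:180196076-180196270, which ends 55 bases before its start, and the second is chr1:180193486-180193602, directly before its start. The third line is the distal end of the *Pdss1* promoter, chr2:22895272-22895320 on the plus strand, in which the capitals mark a motif.
Coq8a, upstream start: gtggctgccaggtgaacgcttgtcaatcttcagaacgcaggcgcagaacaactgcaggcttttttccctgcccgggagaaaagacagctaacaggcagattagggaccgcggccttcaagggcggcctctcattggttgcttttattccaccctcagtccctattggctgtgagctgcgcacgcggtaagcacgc
Coq8a, downstream start: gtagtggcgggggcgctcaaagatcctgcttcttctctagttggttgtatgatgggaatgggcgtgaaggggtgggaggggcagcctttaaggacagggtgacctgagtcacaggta
Pdss1, distal promoter: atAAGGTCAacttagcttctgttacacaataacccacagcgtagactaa
Motifs of 4 factors linked to mitochondrial or muscle genes were searched on both strands in the 250 bases before each RefSeq start, where 8 of the 10 genes had an entry, with 10 starts in all (*Coq5* and *Coq8b* had none). Of these 10 windows, 1 held a match, the oestrogen-related receptor motif AAGGTCA at position -248 of *Pdss1*. This motif was in 4.08% of all 32851 promoters. The ETS motif CCGGAAG (6.91% of promoters), the NRF1 motif (3.74%) and the MEF2 motif (2.92%) were in none of the 10 windows, which says only that these letters are not there.

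In control hearts the members spanned a wide range of levels. Per kilobase of exon, which is the scale on which genes can be compared, *Coq9* was the highest in MHCrtTA ventricles at 158 CPM per kb (range 147 to 165, n = 3). COQ9 is the lipid-binding partner of the hydroxylase COQ7. *Coq8a*, which encodes an atypical kinase-like ATPase needed for the stability of the assembly, came next at 107 CPM per kb (101 to 114). It was followed by the C-methyltransferase *Coq5* at 52.3, the prenyltransferase *Coq2* at 27.1, the O-methyltransferase *Coq3* at 24.5 and the hydroxylase *Coq6* at 21.8 CPM per kb. The hydroxylase *Coq7* was at 13.4, *Coq4*, which acts on the ring and helps to hold the assembly together, at 5.23, *Pdss1*, a subunit of the enzyme that makes the tail, at 3.14, and *Coq8b* at 2.54 CPM per kb. The ranges of *Coq2* and *Coq3* overlapped, as did those of *Coq3* and *Coq6*, and no other neighbours in this order did.

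*Coq8a* was lower in all CUG960 libraries than in any control library of the same tissue. In atria the controls V327, V333 and V334 were at 294, 258 and 269 CPM, and the CUG960 mice V119, V120 and V123 at 79.1, 68.7 and 66.8 CPM. In ventricles the controls were at 561, 606 and 534 CPM and the CUG960 mice at 88.4, 107 and 85.6 CPM. The lowest control value was thus above the highest CUG960 value in both tissues. The means were 274 ± 18.4 against 71.5 ± 6.65 CPM in atria and 567 ± 36.4 against 93.6 ± 11.5 CPM in ventricles (SD, n = 3). The difference was 3.84-fold in atria (log2 fold change -1.94, SE 0.09) and 6.08-fold in ventricles (log2 fold change -2.60, SE 0.11). It was the 12th largest decrease of 16909 genes in ventricles and the 64th of 17650 in atria. The fewest *Coq8a* counts in any library were 9040, so counting error was small beside the spread between mice. These are bulk libraries, in which fewer cells of a type and less RNA per cell cannot be told apart.

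**Figure D1:**
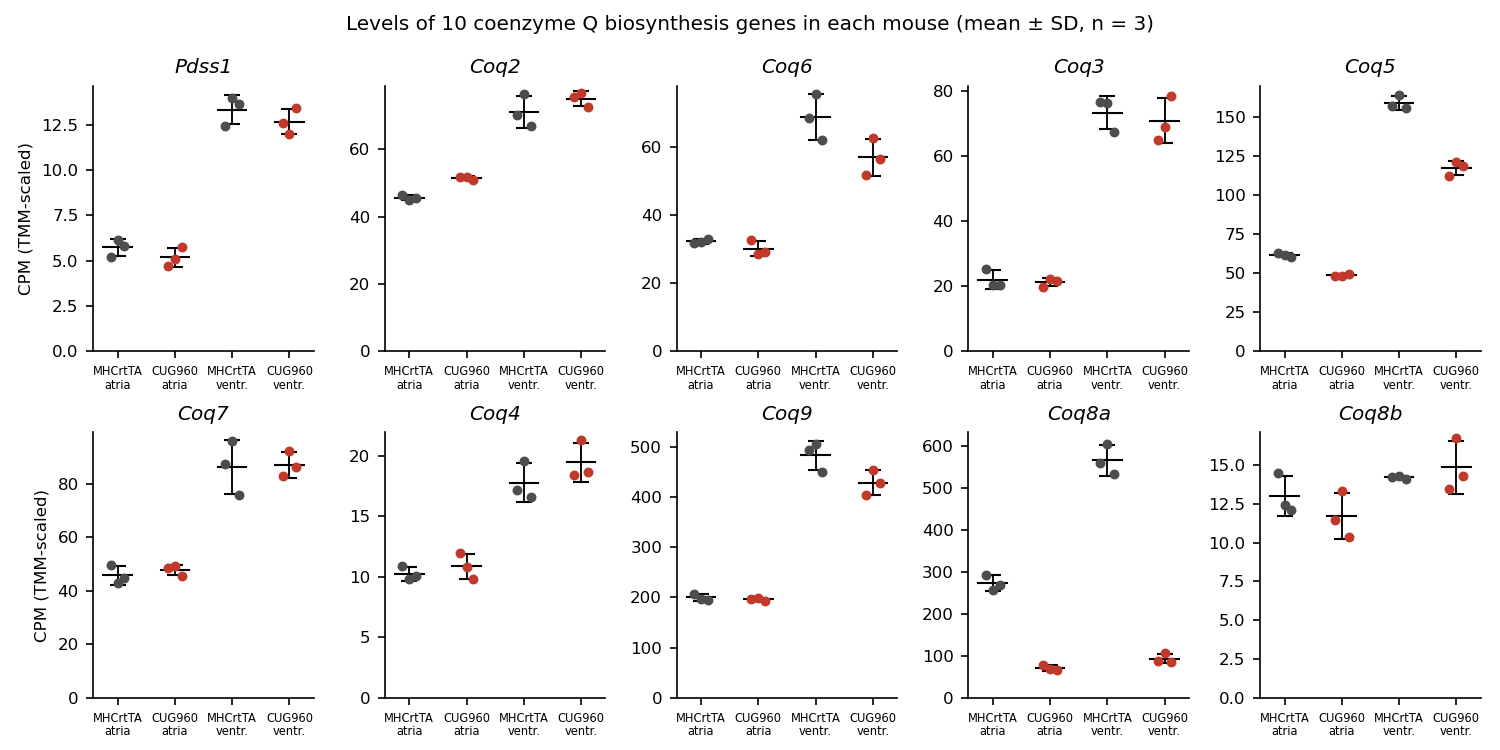
Level of each of the 10 genes in CPM (TMM-scaled, linear axes from 0) in MHCrtTA and CUG960 atria and ventricles; points are mice, lines the mean and bars ± SD (n = 3). *Coq8a* falls from 567 to 93.6 CPM on average in ventricles, *Coq5* is lower in CUG960 in both tissues, and most members are higher in ventricles than in atria.

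With this difference the place of *Coq8a* among the members changed. Per kilobase it had rank 2 of the 10 in control atria and ventricles, after *Coq9*, and it had rank 4 in CUG960 atria and rank 6 in CUG960 ventricles. In CUG960 ventricles it was at 17.7 CPM per kb (16.2 to 20.2), a range that overlapped that of *Coq6* (16.5 to 19.9) and lay above that of *Coq7* (12.9 to 14.3). Its share of the summed CPM of the 10 genes was 37.7% to 39.3% in control atria and 36.0% to 36.8% in control ventricles. In CUG960 mice the share was 13.8% to 15.7% in atria and 8.81% to 10.3% in ventricles. The summed CPM of the other 9 genes overlapped between the genotypes, at 427 to 454 in control and 416 to 429 in CUG960 atria, and at 921 to 1041 in control and 837 to 926 in CUG960 ventricles.

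*Coq8b*, which encodes the other ATPase of this pair, did not pass the test in either tissue. It was at 14.5, 12.4 and 12.1 CPM in control atria and at 11.4, 13.3 and 10.4 CPM in CUG960 atria (log2 fold change -0.16, 95% interval -0.41 to 0.10, adjusted P value = 0.377, edgeR). In ventricles it was at 14.2, 14.3 and 14.1 CPM in controls and at 13.5, 16.8 and 14.3 CPM in CUG960 mice (log2 fold change 0.06, 95% interval -0.17 to 0.28, adjusted P value = 0.769, edgeR). The groups overlapped in both tissues. Per kilobase *Coq8a* was 21.4 to 23.4 times as high as *Coq8b* in control atria and 39.9 to 44.8 times as high in control ventricles. In CUG960 mice it was 5.44 to 7.29 times as high in atria and 6.32 to 6.93 times as high in ventricles. The sum of both genes fell from 54.0 ± 3.70 to 15.6 ± 1.28 CPM per kb in atria and from 110 ± 6.90 to 20.3 ± 2.46 CPM per kb in ventricles (SD, n = 3), which follows from *Coq8a* and is given with no test.

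**Figure D2:**
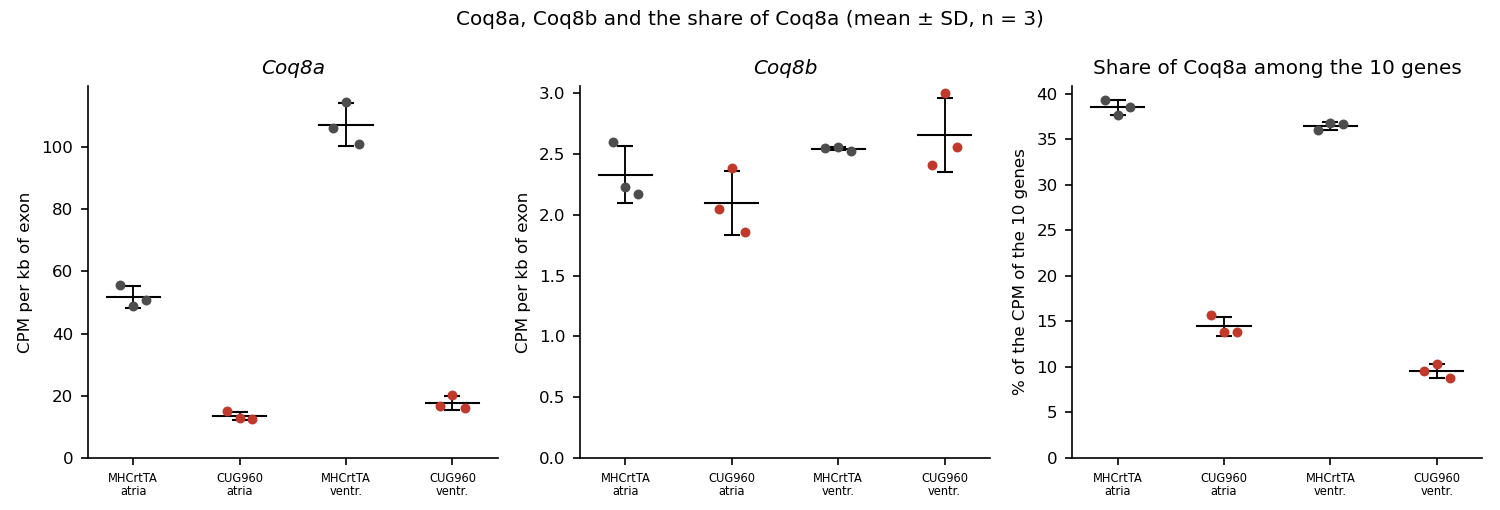
Levels of *Coq8a* and *Coq8b* in CPM per kb of exon and the share of *Coq8a* in the summed CPM of the 10 genes in percent, each with linear axes from 0; points are mice, lines the mean and bars ± SD (n = 3). *Coq8a* is lower in every CUG960 library, *Coq8b* overlaps between the genotypes in both tissues, and the share of *Coq8a* is under 16% in CUG960 mice and 36.0% or more in controls.

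Among the other 9 members *Coq5* was the only gene that passed the test, and it fell in both tissues. COQ5 is the methyltransferase that adds the methyl group to a ring carbon. In atria it was at 62.7, 61.4 and 60.5 CPM in controls and at 48.3, 48.4 and 49.5 CPM in CUG960 mice. In ventricles it was at 157, 164 and 155 CPM in controls and at 112, 121 and 118 CPM in CUG960 mice. All CUG960 values were below all control values in both tissues. The decrease was 1.27-fold in atria (log2 fold change -0.34, SE 0.05, adjusted P value = 0.00459) and 1.36-fold in ventricles (log2 fold change -0.44, SE 0.07, adjusted P value = 0.00518, edgeR with Benjamini-Hochberg adjustment over all genes). The call held in 13 of 13 alternative settings in each tissue, with a log2 fold change from -0.36 to -0.30 in atria and from -0.46 to -0.33 in ventricles. At an adjusted P value under 0.05 alone, 14.6% of the genes tested passed in atria (7.95% higher, 6.62% lower) and 9.94% in ventricles (5.73% higher, 4.2% lower). The count of 1 of 9 members in each tissue is near these shares. With a fold change of at least 1.5 as well, 5.49% of genes passed in atria and 4.75% in ventricles, and 0 of these 9 members did. At an unadjusted P value under 0.05 (edgeR) there were 2 of the 9 in each tissue. Over all genes these were 5337 of 17650 in atria and 4342 of 16909 in ventricles. Without the fold limit DESeq2 called 2 of the 9 in atria and 1 in ventricles. Over all genes it called 3555 of 17650 in atria and 2572 of 16909 in ventricles. With libraries scaled by their totals, 66.0% of the calls over all genes were higher in CUG960 atria and 81.6% in ventricles, against 54.6% and 57.7% with TMM.

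The enzymes at the start of the route did not pass the test. *Coq2*, which joins the tail to the ring precursor, was at 46.4, 44.9 and 45.7 CPM in control atria and at 51.7, 51.9 and 50.9 CPM in CUG960 atria. These groups did not overlap, with all CUG960 values higher by a small amount (log2 fold change 0.17, SE 0.05, adjusted P value = 0.0614, edgeR). DESeq2 put this difference past the threshold (adjusted P value = 0.034). In ventricles *Coq2* overlapped between the genotypes (log2 fold change 0.07, 95% interval -0.10 to 0.24, adjusted P value = 0.602, edgeR). *Pdss1* was at a log2 fold change of -0.15 in atria (adjusted P value = 0.415) and -0.08 in ventricles (adjusted P value = 0.649), with overlapping groups.

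The remaining members overlapped between the genotypes in both tissues. *Coq6* in ventricles was the nearest to the threshold among them, with controls at 68.5, 75.5 and 61.9 CPM and CUG960 mice at 51.8, 62.5 and 56.3 CPM. The log2 fold change was -0.28 (95% interval -0.50 to -0.06, adjusted P value = 0.111, edgeR), with V120 above the lowest control. *Coq9* in ventricles was at 494, 505 and 449 CPM in controls and at 405, 454 and 428 CPM in CUG960 mice (log2 fold change -0.18, 95% interval -0.36 to 0.01, adjusted P value = 0.217, edgeR). *Coq3*, *Coq7* and *Coq4* were between -0.06 and 0.12 on the log2 scale in both tissues. Over the 9 members without *Coq8a* the median log2 fold change was -0.05 in atria and -0.06 in ventricles, against -0.01 over all genes tested in each tissue.

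**Figure D3:**
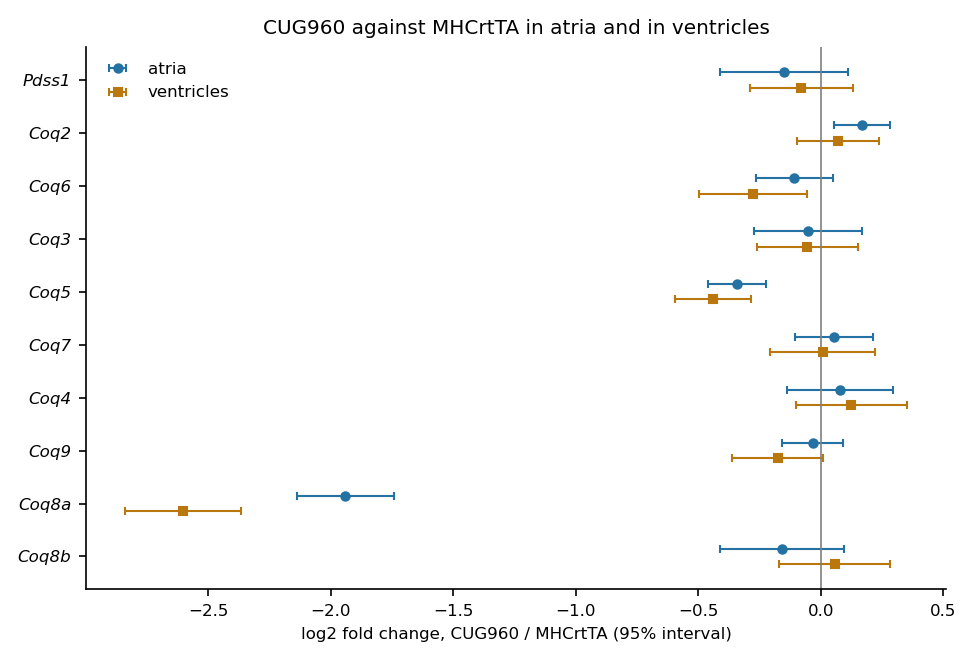
Log2 fold change of CUG960 against MHCrtTA for the 10 genes in atria (circles) and ventricles (squares), with 95% intervals of the edgeR fit. An interval is also drawn for *Coq8a*, but it is not to be read as a test, because the *Coq8a* level chose the family. *Coq8a* lies at -1.94 and -2.60, *Coq5* at -0.34 and -0.44, and the other 8 genes lie between -0.28 and 0.17.

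Some measures of the samples moved with the genotype beside these results. The summed level of the endothelial markers *Pecam1*, *Cdh5*, *Kdr* and *Tie1* was 494, 508 and 428 CPM in control atria and 317, 360 and 332 CPM in CUG960 atria. In ventricles it was 727, 584 and 673 CPM in controls and 495, 467 and 504 CPM in CUG960 mice. In each tissue 3 of these 4 genes had all CUG960 values below all control values, and none was at 0 in any library. By edgeR 3 fell in atria and 2 in ventricles, where 6.62% and 4.2% of all genes fell. For this list and those below, the share of all genes without overlap between the genotypes was not counted. *Pecam1* was the most abundant in atria, and *Kdr* or *Cdh5* in ventricles. The cardiomyocyte markers *Myh6*, *Actc1*, *Tnnt2*, *Tnni3* and *Ryr2* summed to 37895 to 39501 CPM in control atria and 40620 to 42783 CPM in CUG960 atria, and to 44447 to 47928 and 46694 to 50796 CPM in ventricles, with *Myh6* the most abundant. In each tissue 2 of these 5 genes had all CUG960 values below all control values (*Actc1* and *Ryr2* in atria, *Tnnt2* and *Ryr2* in ventricles) and *Myh6* had all of them above. By edgeR 1 of the 5 fell in each tissue, against 6.62% of all genes in atria and 4.2% in ventricles. *Myh6* rose in atria (adjusted P value = 0.0393, edgeR), where 7.95% of all genes rose. *Ryr2*, the calcium release channel, fell in both tissues (log2 fold change -0.53, adjusted P value = 0.0298 in atria and -0.67, adjusted P value = 0.0148 in ventricles, edgeR). The atrial cardiomyocyte markers *Myl7*, *Myl4*, *Nppa*, *Sln* and *Bmp10*, with *Nppa* the most abundant, summed to 26236 to 28881 CPM in control and 21739 to 23829 CPM in CUG960 atria. There *Nppa* fell (log2 fold change -0.42, adjusted P value = 0.0083, edgeR), and *Myl4* was the other of 2 of these 5 genes with all CUG960 values below all controls. In ventricles *Nppa*, the atrial natriuretic peptide, rose 2.46-fold (adjusted P value = 0.0314, edgeR) and *Bmp10*, a growth factor, fell from between 2.38 and 3.74 CPM to between 0.0344 and 0.276 CPM (adjusted P value = 0.00161, edgeR). The ventricular cardiomyocyte markers *Myl2*, *Myl3*, *Irx4* and *Hey2*, with *Myl2* the most abundant, overlapped in sum, at 17.1 to 56.5 CPM in control and 18.0 to 21.2 CPM in CUG960 atria and at 13782 to 17309 and 15732 to 16915 CPM in ventricles. Of these 4 genes *Hey2*, a transcriptional repressor, fell in atria (log2 fold change -0.67, adjusted P value = 0.0494) and in ventricles (log2 fold change -0.52, adjusted P value = 0.0494, edgeR). *Irx4*, a homeobox gene of the ventricles, rose there (log2 fold change 0.36, adjusted P value = 0.0303, edgeR), and the groups of both genes did not overlap in these comparisons.

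A list of skeletal muscle genes summed to 756 to 802 CPM in control and 461 to 559 CPM in CUG960 atria, and to 2544 to 2630 and 1717 to 2381 CPM in ventricles. Its most abundant gene was *Ckm*, which heart muscle also expresses, and the fast myosins *Myh1* and *Myh4* were under 0.1 CPM in every library. *Ckm*, the muscle creatine kinase, fell in atria (log2 fold change -0.60, adjusted P value = 0.00292, edgeR) and overlapped in ventricles (adjusted P value = 0.534, edgeR). *Acta1*, the skeletal α-actin, was at 798, 640 and 855 CPM in control and at 196, 510 and 431 CPM in CUG960 ventricles, without overlap (log2 fold change -1.02, adjusted P value = 0.0543, edgeR). Adipocyte markers summed to 0.523 to 12.8 CPM in all libraries, led by *Adipoq*, *Plin1* or *Cidec*, and were lower without overlap in CUG960 ventricles. The summed fibroblast markers, led by *Dcn*, overlapped between the genotypes in both tissues, at 1679 to 2029 CPM in control and 1485 to 1736 CPM in CUG960 atria, as did leukocyte markers. All CUG960 values were below all control values for 3 of the 6 fibroblast genes in atria (*Pdgfra*, *Tcf21* and *Col1a2*) and for 2 in ventricles (*Pdgfra* and *Lum*). By edgeR 2 of the 6 fell in atria and 0 in ventricles, where 6.62% and 4.2% of all genes fell. Mitochondrially encoded genes took 19.6% to 20.5% of the counts in control ventricles and 15.3% to 18.4% in CUG960 ventricles. The part of these measures in the results was not tested.

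The genes of the route were higher in ventricles than in atria. In control mice 8 of the 9 members other than *Coq8a* were higher in ventricles at an adjusted P value under 0.05, where 27.5% of all genes tested were, and *Coq8b* was the exception (log2 fold change 0.14, adjusted P value = 0.215, edgeR), with its sign turned when libraries were scaled by their totals alone. The median log2 fold change of the 9 members was 1.10, against -0.03 over all genes tested. In CUG960 mice 9 of 9 were higher in ventricles, against 27.5% of genes, with a median of 0.94 against -0.01, and *Coq8b* again turned its sign under that scaling. Related genes, listed below, shared this direction in part. In controls 9 of 12 further genes of coenzyme Q and 8 of 10 genes of enzymes that pass electrons to it were higher in ventricles, with 0 lower. In CUG960 mice these were 9 of 12, with 0 lower, and 6 of 10, with 1 lower. Of 10 mevalonate genes 4 were higher and 3 lower in each genotype. With library totals the median over all genes moved to -0.49 in controls and -0.40 in CUG960 mice, and 18.2% and 20.3% of the calls were higher in ventricles, against 49.3% and 50.8% with TMM. Other measures moved with the tissue. In controls the fibroblast markers summed to 1679 to 2029 CPM in atria and 1072 to 1234 CPM in ventricles, and the leukocyte markers to 72.9 to 107 and 31.1 to 40.9 CPM. The endothelial markers were at 428 to 508 CPM in atria and 584 to 727 CPM in ventricles, where *Cdh5* (2.14-fold), *Kdr* (2.32-fold) and *Tie1* (1.32-fold) were higher and *Pecam1* was lower (log2 fold change -0.38), all past the threshold (highest adjusted P value = 0.00407, edgeR). The cardiomyocyte markers were at 37895 to 39501 CPM in atria and 44447 to 47928 CPM in ventricles, and mitochondrially encoded genes took 11.8% to 12.2% and 19.6% to 20.5% of the counts. In CUG960 mice, in atria and ventricles in turn, the fibroblast markers were at 1485 to 1736 and 1073 to 1154 CPM, and the leukocyte markers at 77.9 to 81.6 and 27.6 to 34.9 CPM. There the endothelial markers were at 317 to 360 and 467 to 504 CPM, the cardiomyocyte markers at 40620 to 42783 and 46694 to 50796 CPM, and the mitochondrial share at 10.92% to 11.98% and 15.3% to 18.4%. None of these ranges overlapped between the tissues. Their part in the tissue differences was not tested.

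*Coq3*, which encodes the enzyme that methylates the ring oxygens, had the largest tissue difference of the members in both genotypes. It was at 25.3, 20.3 and 20.4 CPM in control atria and at 76.6, 76.3 and 67.5 CPM in the ventricles of the same mice (log2 fold change 1.75, SE 0.10, adjusted P value = 3.38e-06, edgeR). In CUG960 mice it was at 20.0, 22.2 and 21.7 CPM in atria and at 65.2, 69.2 and 78.5 CPM in ventricles (log2 fold change 1.75, SE 0.09, adjusted P value = 6.41e-07, edgeR). In controls *Coq5* (1.38), *Coq9* (1.28) and *Pdss1* (1.23) followed. In CUG960 mice the order was *Pdss1* (1.31), *Coq5* (1.28) and *Coq9* (1.15). *Coq6* was at 1.10 in controls and 0.94 in CUG960 mice. The smallest difference among the members past the threshold in controls was that of *Coq2* (0.65).

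*Coq8a* differed between ventricles and atria by 2.09-fold in controls (log2 fold change 1.06, SE 0.08) and by 1.33-fold in CUG960 mice (log2 fold change 0.41, SE 0.10), and the genotypes differed in this tissue step by -0.66 on the log2 scale (SE 0.14). These are given with no test, because the ventricular values chose the family. With libraries scaled by their totals the log2 fold change was 0.61 in controls and 0.01 in CUG960 mice, and without V120 it was 0.26 in CUG960 mice. *Coq8b* was higher in ventricles of CUG960 mice by a log2 fold change of 0.36 (SE 0.12, adjusted P value = 0.03, edgeR), a call that was lost without V119 (adjusted P value = 0.0632) or V123 (adjusted P value = 0.139).

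**Figure D4:**
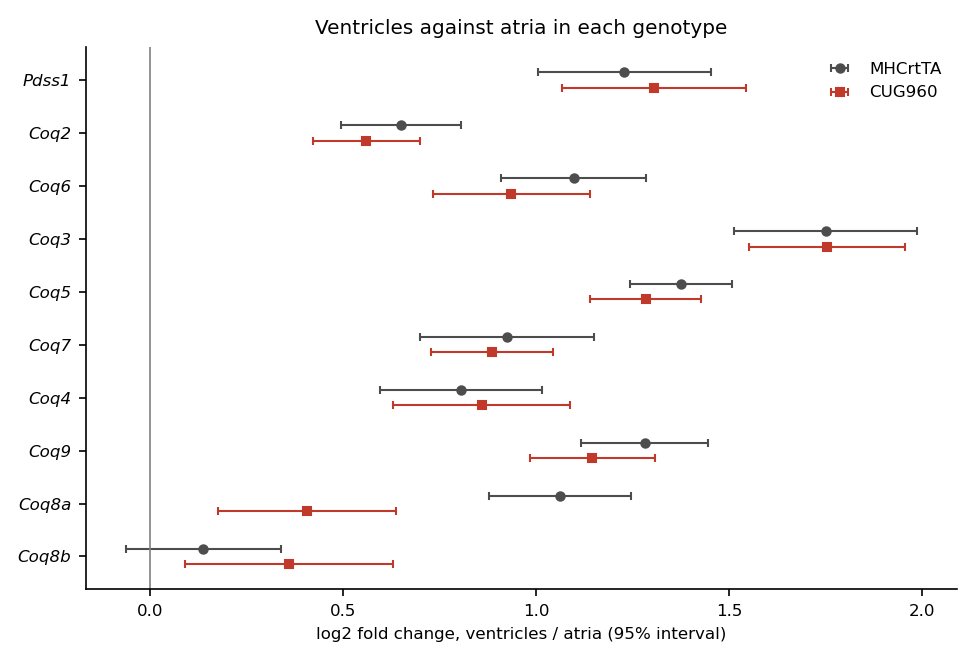
Log2 fold change of ventricles against atria for the 10 genes in MHCrtTA (circles) and CUG960 (squares) mice, with 95% intervals of the edgeR fit. An interval is also drawn for *Coq8a*, but it is not to be read as a test, because its ventricular values chose the family. *Coq8a* lies at 1.06 in controls and 0.41 in CUG960 mice and *Coq3* at 1.75 in both; *Coq8b* (0.14 and 0.36) is below 0 in both when libraries are scaled by their totals.

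Whether the genotype change differed between the tissues was tested by a tissue-by-genotype interaction term fitted to the 12 libraries. Of the 18327 genes tested 1.38% passed, and of the 9 members other than *Coq8a* 0 passed, with 0 at an unadjusted P value under 0.05 and 0 with DESeq2. Over all genes 2253 were under that unadjusted value (edgeR) and 660 passed with DESeq2. The estimates of these 9 lay between -0.17 (*Coq6*) and 0.21 (*Coq8b*) on the log2 scale. The interval of *Coq5* was -0.26 to 0.06, and that of *Coq8b* was -0.12 to 0.55, so differences of such sizes remained possible at this number of mice.

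Other genes around the route were taken from lists written by gene function. Of 12 further genes of coenzyme Q (the second tail subunit *Pdss2*, the coenzyme Q binding proteins *Coq10a* and *Coq10b*, and genes for electron supply, transport and related kinases) 0 passed in atria by edgeR or DESeq2, with 4 at an unadjusted P value under 0.05. Over all 17650 genes tested in atria, 5337 were under that unadjusted value (edgeR) and 3555 passed with DESeq2. In ventricles 1 passed, where 14.6% of all genes passed in atria and 9.94% in ventricles. This was *Coq10a*, the most abundant of them in ventricles, which fell there from 298, 309 and 272 CPM to 201, 211 and 213 CPM (log2 fold change -0.50, SE 0.08, adjusted P value = 0.00509, edgeR). The groups did not overlap. In atria *Coq10a* was at a log2 fold change of -0.19 (adjusted P value = 0.149). The median of the 12 was -0.03 in atria and -0.07 in ventricles.

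The mevalonate pathway makes the isoprenoid units of the tail, and some of its genes were higher in CUG960 mice. Of 10 genes 2 rose in atria and 4 in ventricles, and 0 fell, where 7.95% and 5.73% of all genes rose. The medians were 0.24 and 0.32 on the log2 scale, against -0.01 over all genes in each tissue. *Fdft1*, which encodes squalene synthase and so leads away from the tail towards sterols, was at 17.9, 13.0 and 13.0 CPM in control atria and at 25.8, 22.5 and 29.0 CPM in CUG960 atria (log2 fold change 0.81, SE 0.14, adjusted P value = 0.00848, edgeR). In ventricles it rose from 55.6, 59.6 and 51.8 CPM to 75.5, 73.8 and 76.4 CPM (log2 fold change 0.43, adjusted P value = 0.00897, edgeR). *Mvd*, which encodes the decarboxylase that forms isopentenyl diphosphate, rose in ventricles from 5.75, 5.18 and 4.54 CPM to 8.34, 9.46 and 8.45 CPM (log2 fold change 0.76, SE 0.12, adjusted P value = 0.00542, edgeR). Neither gene's groups overlapped in these comparisons. The isomerase *Idi1* rose in both tissues (0.34, adjusted P value = 0.0177 and 0.46, adjusted P value = 0.033, edgeR), and the farnesyl diphosphate synthase *Fdps* rose in ventricles (0.51, adjusted P value = 0.0225, edgeR). The atrial count was 5 with DESeq2, which called 3555 of 17650 genes there, 1816 of them higher. It was 1 without V119, V120, V333 or V334. Those fits called 1334, 1484, 1235 and 1423 genes in turn, against 2573 with all mice. The ventricular count was 2 without V119, V327 or V334, where 942, 784 and 1178 genes were called in turn, against 1680 with all mice. The call of *Idi1* was lost in atria without V119, V120, V333 or V334 (up to an adjusted P value of 0.0707, edgeR) and in ventricles without each mouse in turn except V120 (up to 0.0988). That of *Fdps* was lost without V119, V120, V327 or V334 (up to 0.0757).

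Of 10 genes of enzymes that pass electrons to coenzyme Q, 2 fell in each tissue and 0 rose, where 6.62% of all genes fell in atria and 4.2% in ventricles. *Sqrdl*, the sulfide oxidoreductase, fell in both, from 47.1, 42.9 and 46.0 to 38.2, 39.4 and 37.3 CPM in atria (log2 fold change -0.25, adjusted P value = 0.0262) and from 56.1, 62.6 and 56.0 to 40.4, 39.1 and 35.2 CPM in ventricles (log2 fold change -0.61, SE 0.08, adjusted P value = 0.0024, edgeR). The atrial call of *Sqrdl* was lost without V119, V120, V327 or V334 (highest adjusted P value = 0.103, edgeR). *Prodh*, the proline dehydrogenase, fell in ventricles from 35.3, 40.7 and 37.5 to 22.4, 26.8 and 24.8 CPM (log2 fold change -0.62, SE 0.09, adjusted P value = 0.00424, edgeR) and overlapped in atria. *Gpd2*, the mitochondrial glycerol 3-phosphate dehydrogenase, fell in atria (-0.40, adjusted P value = 0.0239, edgeR), a call that was lost without V119, V120 or V333 (highest adjusted P value = 0.088, edgeR). In ventricles it was at 11.3, 10.6 and 11.7 CPM in controls and at 9.48, 7.90 and 9.04 CPM in CUG960 mice, without overlap (log2 fold change -0.35, adjusted P value = 0.0647, edgeR), and DESeq2 put this past the threshold (adjusted P value = 0.0226), as did the single fit of 12 libraries (adjusted P value = 0.0286, edgeR). The 4 subunits of succinate dehydrogenase, which are the most abundant of these genes per kilobase of exon, did not pass the test and were between -0.18 and 0.03 on the log2 scale. The median of the 10 genes was -0.05 in atria and -0.14 in ventricles.

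**Figure D5:**
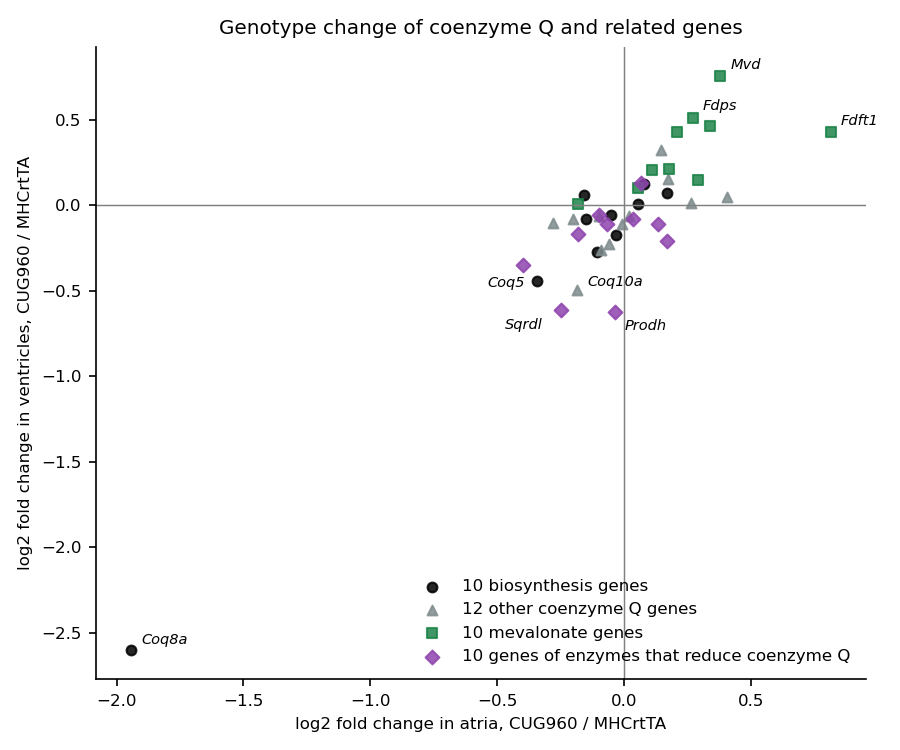
Log2 fold change of CUG960 against MHCrtTA in ventricles plotted over that in atria for the 10 biosynthesis genes, 12 other coenzyme Q genes, 10 mevalonate genes and 10 genes of enzymes that reduce coenzyme Q; each point is a gene. *Coq8a* stands alone at the lower left, and *Mvd*, *Fdps* and *Fdft1* lie at the upper right.

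The genes whose levels were most like those of *Coq8a* over the 12 libraries were not members of the route. Among 13111 genes, Pearson's r of log2 CPM with *Coq8a* was 0.99 for *Cdnf* and for *Oplah*, 0.98 for *6030419C18Rik* and *Adgre5* and 0.97 for *Stx2*. *Cdnf* encodes a neurotrophic factor of the endoplasmic reticulum, and *Oplah* the 5-oxoprolinase of the glutathione cycle. *Cdnf* was at 19.4, 16.1 and 15.9 CPM in control atria and at 2.78, 2.58 and 2.98 CPM in CUG960 atria, and at 30.0, 29.9 and 29.8 CPM in control and 3.26, 3.59 and 3.17 CPM in CUG960 ventricles. It was thus low in the same 6 libraries as *Coq8a* and highest in control ventricles. *Oplah* followed the same order of group means over a narrower range, from 45.3 CPM in CUG960 atria to 73.8 CPM in control ventricles. Its CUG960 groups overlapped, at 45.3 to 46.5 CPM in atria and 45.8 to 50.4 CPM in ventricles. Of the members *Coq5* was the nearest to *Coq8a* (r = 0.56, rank 1307) and *Coq2* the farthest (r = 0.11). The points share libraries, depth and the same 4 groups, so these values only describe likeness.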

How the data were processed

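RNA-Seq of atria and ventricles from 3 CUG960 +dox and 3 MHCrtTA +dox mice was analyzed. The authors prepared stranded poly(A) libraries, aligned paired-end reads to mm10 (GRCm38) and estimated gene counts with RSEM 1.3.1 on an Ensembl GRCm38 annotation. The deposited table holds expected counts for 12 libraries, which are whole numbers (0 are not), unscaled and unfiltered. It has 51826 entries, of which 92 repeat a symbol, and was used as deposited. RSEM shares reads among related transcripts, so counts of near-identical genes are uncertain.

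Low-count genes were removed with filterByExpr, TMM factors were applied, and groups were compared with the quasi-likelihood test of edgeR 4.0.16 (R 4.3.3), with Benjamini-Hochberg adjustment over all genes tested and a threshold of 0.05. Genotypes were compared within each tissue, tissues within each genotype (no P value is given for *Coq8a*), and the interaction over 12 libraries. CPM used TMM factors of all 12 libraries, 1.12 to 1.18 in atria and 0.819 to 0.906 in ventricles. Levels per kilobase used the union of exons in GENCODE M21 (GRCm38), and promoters were those of RefSeq (GRCm38.p6). Likeness to *Coq8a* was Pearson's r of log2 CPM (prior count 2) over genes whose mean reached 1 CPM. The fits were also run on simulated counts with 200 planted changes of 1.5 on the log2 scale. These were larger than the genotype changes of all members except *Coq8a*, so the simulation does not speak to changes of that smaller size.

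Mice are biological replicates, and their libraries differed by 38.7 to 114 times counting noise (chi-square per degree of freedom). Depth was not varied. Atria and ventricles came from the same mice, which pairs them by mouse number. Deviations from the group means correlated at r between 0.030 and 0.135 for the 2 libraries of a mouse, and those of different mice at r between -0.150 and 0.124. Alternatives were DESeq2 1.42.0, RLE size factors, counts without mitochondrially encoded genes, other filters, a single fit of all libraries, fold change limits, the mouse as a block, leaving out each mouse, and, added after the data were seen, library totals without TMM.

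The members and gene lists were chosen with earlier results of these data known. Named genes were all members, list genes called at 1.5-fold or more between genotypes, the most abundant gene of each list, *Dmpk* and the 5 genes most like *Coq8a*. *Idi1*, *Fdps*, *Gpd2* and the single marker genes given beside their lists were also named after their values were seen, and 1 listed gene is not reported here. Of the lists, *Choldh* was not analysed here.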

Additional observations from a re-analysis of the deposited data

Results flagged for a closer look

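The genotype change of *Prodh*, the proline dehydrogenase that passes electrons to coenzyme Q, differed between the tissues, with an interaction of -0.587 on the log2 scale (95% interval -0.86 to -0.32, adjusted P value = 0.0379, edgeR). In atria the controls were at 33.7, 34.2 and 34.2 CPM and the CUG960 mice at 29.5, 34.9 and 35.5 CPM, while in ventricles all CUG960 values were below all control values. The call held without V119 (adjusted P value = 0.0434, edgeR), and it was lost without any of the other mice, with an adjusted P value of up to 0.22, and with libraries scaled by their totals (adjusted P value = 0.0605).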

How the results depend on the processing

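*Coq5* passed the test in both tissues under all 13 refits, although it was under the fold change limits. The level of *Coq8a* chose the family, so its refits on the same counts only describe the spread of its estimate. Its log2 fold change ranged from -2.02 to -1.90 in atria and from -2.71 to -2.49 in ventricles. The mouse as a replicate block changed no call of a member and gave 9739 genes for the tissues in controls and 9729 in CUG960 mice, against 9726 and 9517 without it, and 167 higher and 167 lower for the interaction, against 127 and 126. With DESeq2 the members other than *Coq8a* past the threshold in atria were 2 against 1. The genes past it were 3555 against 2573 in atria, 2572 against 1680 in ventricles and 660 against 253 for the interaction. Scaling by library totals gave 2 such members in atria, where 2633 of 17650 genes passed. The limit of 1.5-fold left 969 and 804 genes for the genotypes (atria, ventricles), 0 such members in either tissue, and 6098 and 5900 genes for the tissues (MHCrtTA, CUG960). The limit of 1.5 on the log2 scale left 216, 199, 2233 and 2200 genes, 0 such members between genotypes and 1 between tissues in each genotype. With single mice left out the genes called ranged from 1235 (without V333) to 2584 in atria, from 784 (without V327) to 1347 in ventricles and from 74 (without V333) to 131 for the interaction, and the cause was not tested. Each fit that left out a mouse kept 2 in that group, and the spread was pooled over groups.

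Some signs turned, and the cause was not tested. Under library totals, these were *Coq9* (0.0057) and *Prodh* (0.0003) in atria, *Pdss1* (0.0279) and *Coq3* (0.0530) in ventricles, *Coq8b* between tissues (-0.32, adjusted P value = 0.0095, in controls and so past the threshold in the opposite direction, and -0.0333 in CUG960 mice, where 0.36 had passed), and the interactions of *Coq3* (0.0648) and *Coq7* (0.0245). With single mice left out, *Coq3* ranged from -0.11 to 0.0532 in atria and from -0.14 to 0.0047 in ventricles, *Coq7* from -0.0764 to 0.0915 and *Coq8b* from -0.0371 to 0.13 in ventricles, *Prodh* from -0.0900 to 0.0419 in atria, and the interactions ranged from -0.0853 to 0.0904 (*Coq3*), -0.11 to 0.0907 (*Coq7*) and -0.0272 to 0.16 (*Coq4*). The interaction of all genes was at 65.5% higher calls under library totals, against 50.2%. How far depth limits the calls was not tested.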
